A study of Rattus norvegicus with 6 samples.

Results

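The tumor necrosis factor (TNF) family is described here by 10 genes of the rat heart, which were fixed by name with earlier results of these data known. They are the ligands Tnf, Tnfsf12 (TWEAK) and Tnfsf10 (TRAIL), the receptors Tnfrsf1a, Tnfrsf1b, Tnfrsf12a (Fn14), Fas and Tnfrsf11b (osteoprotegerin), and the adaptors Traf1 and Traf2. All 10 symbols were found once each among the 28293 genes of the deposited table. Myocardial tissue of 3 sham rats was compared with that of 3 rats with myocardial ischemia/reperfusion injury (MI/RI, labelled I/R), all male and wild type. MI/RI was made by tying the left anterior descending artery for 30 min, and hearts were taken after 6 h of reperfusion. The labels give the sham rats the same times. The sources used here do not give the strain, the age or the part of the heart that was taken. They also do not say what the sham operation left out.

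TNF ligands are mostly made as trimers on the cell surface and bind receptors that cluster on the target cell. Receptors with a death domain (Tnfrsf1a, Fas) can start caspase signaling, whereas those without it (Tnfrsf1b, Tnfrsf12a) bind TRAF adaptors directly and signal mainly to NF-κB and MAP kinases. TNF is an early cytokine of the injured heart, and the TWEAK receptor Fn14 is known as a receptor whose gene is induced by growth factors and tissue injury.

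Values are FPKM, that is, fragments of a gene divided by its length and by the total of the library. The values of every gene fell on whole fragments, which gave totals of 42221073 to 49848438 fragments in the sham libraries and 36848184 to 39480833 in the MI/RI libraries. The 13 mRNAs encoded by mitochondrial DNA took 69.5% to 76.9% of the fragments in sham and 45.0% to 58.2% in MI/RI, so that the other genes shared a larger part of the library after MI/RI. Of 10942 genes tested, 25.5% were higher and 7.36% lower in MI/RI at an adjusted p below 0.05, and the median log2 fold change was 0.29. All 8 cardiomyocyte markers were present, at a summed 3615 to 11831 FPKM in sham and 24717 to 35838 FPKM in MI/RI. As this is bulk tissue, fewer cells of a type and less RNA per cell cannot be told apart.

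Among the members, the receptors Tnfrsf12a and Tnfrsf1a were called higher after MI/RI, and the ligand Tnfsf10 and the adaptor Traf1 were called lower. The calls of Tnfsf10 and Traf1 were near the threshold and were lost in 9 and 11 of 16 other settings. That of Tnfrsf1a was lost without the mitochondrial mRNAs in the scaling. Tnf itself was at 0.420 FPKM on average in both groups, on 6 to 56 fragments. Its 95% interval of −1.61 to 1.25 with no filter does not show that it was unchanged. Tests were made with limma on log2(FPKM + 0.1), which understates the change of low genes, in genes that averaged 0.5 FPKM or more over the 6 rats. Of the 10 members, 8 passed this filter and Tnf and Tnfrsf11b did not. Of the 8, 2 were called higher and 2 lower, against 25.5% and 7.36% of all genes. The sham and MI/RI values did not overlap in 7 of the 8, against 50.1% of all genes tested.

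**Figure D1:**
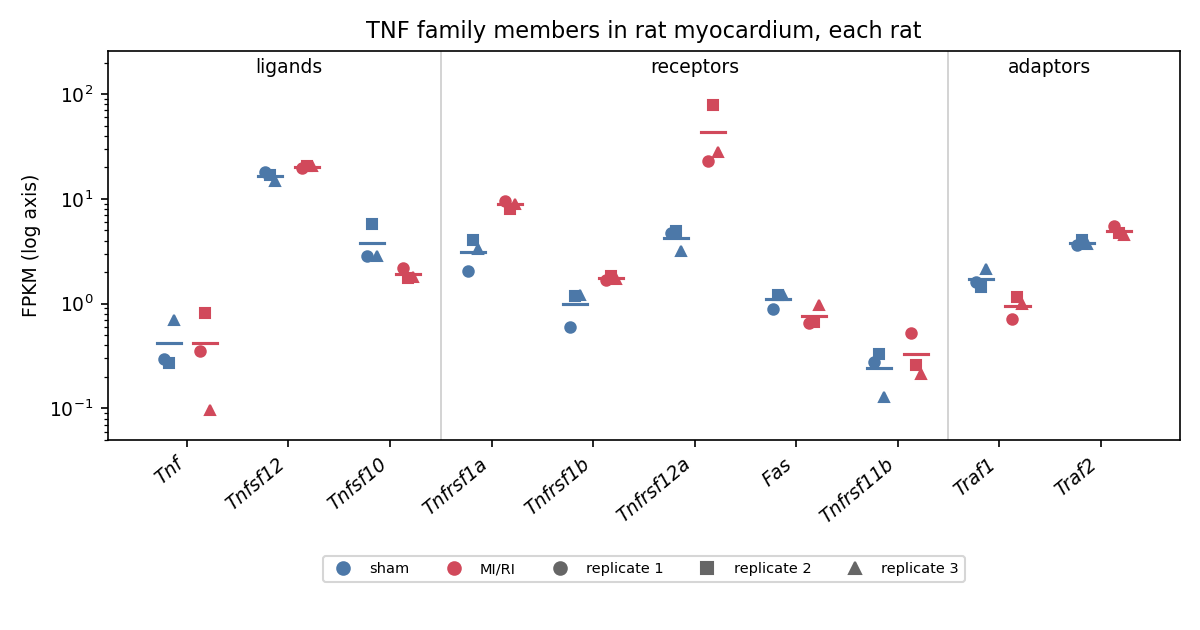
FPKM (log axis) of the 10 members in each rat, with sham in blue, MI/RI in red, the replicate number as the marker shape and the group mean as a bar. Tnfrsf12a lay between 3.19 and 4.95 FPKM in sham and between 22.9 and 79.1 FPKM in MI/RI, whereas the Tnf values of the groups overlapped.

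Tnfrsf12a encodes Fn14, a small receptor with no death domain and the main receptor of TWEAK. In the order of the replicates, the sham rats had 4.71, 4.95 and 3.19 FPKM and the MI/RI rats 22.9, 79.1 and 28.3 FPKM. Every MI/RI rat was above every sham rat, and MI/RI replicate 2 stood well above the others. These values rested on 163 to 263 fragments in sham and on 901 to 3331 in MI/RI. The mean rose from 4.28 ± 0.955 to 43.5 ± 31.0 FPKM (SD, n = 3 each). The log2 fold change was 3.11 (SE 0.42, adjusted p = 0.0026, limma), an 8.66-fold rise on this scale, and 0.448% of the genes tested rose more. Without MI/RI replicate 2 it was 2.57 (adjusted p = 0.0017, limma), and the exact permutation test gave p = 0.1 (two-sided), the smallest that 3 rats against 3 allow.

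Its ligand TWEAK (Tnfsf12), a cytokine made by many cell types, was the most abundant member in sham. Sham values were 18.2, 17.0 and 14.9 FPKM and MI/RI values 19.6, 20.8 and 20.7 FPKM. The groups did not overlap, but they lay close together. Its log2 fold change of 0.29 (SE 0.21, adjusted p = 0.31, limma) had a 95% interval of −0.18 to 0.76 and was close to the median of all genes tested. It changed sign when the mitochondrial mRNAs were left out of the scaling (−0.49) and after quantile normalization (−0.48). Its neighbour Tnfsf13 (APRIL), with which it is known to form read-through transcripts, had 2.68 to 3.17 FPKM in sham and 2.70 to 2.80 FPKM in MI/RI.

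Tnfrsf1a encodes TNFR1, the widely expressed death domain receptor of TNF. Sham rats had 2.06, 4.02 and 3.34 FPKM and MI/RI rats 9.64, 8.06 and 9.04 FPKM. All MI/RI rats were well above all sham rats, and sham replicate 1 was the lowest. The mean went from 3.14 ± 0.997 to 8.91 ± 0.798 FPKM (SD, n = 3 each), a log2 fold change of 1.52 (SE 0.27, adjusted p = 0.0046, limma). With each rat left out in turn it stayed between 1.26 and 1.72. With the mitochondrial mRNAs left out of the scaling it was 0.75 and no longer passed (adjusted p = 0.093, limma).

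Tnfrsf1b encodes TNFR2, the receptor without a death domain that is found mainly on leukocytes and endothelial cells. It was lower than Tnfrsf1a in every library, at 0.593, 1.20 and 1.22 FPKM in sham and 1.70, 1.85 and 1.72 FPKM in MI/RI. The groups did not overlap, and sham replicate 1 was the lowest. A log2 fold change of 0.81 (SE 0.30, 95% interval 0.14 to 1.48) had an adjusted p of 0.063 (limma) and did not pass. It passed after rescaling to TPM (adjusted p = 0.030, limma) and in a fit to the recovered fragments (voom in limma, adjusted p = 0.039). In the fit to the recovered fragments with no filter, Tnfrsf1b did not pass (adjusted p = 0.064, voom in limma). Without the mitochondrial mRNAs in the scaling its log2 fold change was 0.08.

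Tnf, the founding cytokine of the family, was low in all 6 rats. Sham replicates had 0.295, 0.274 and 0.692 FPKM and MI/RI replicates 0.354, 0.811 and 0.0956 FPKM, so that the lowest and the highest value both came from MI/RI rats. In fragments these were 21, 23 and 56 in sham and 22, 54 and 6 in MI/RI. Counting error alone (exact Poisson, 95%) gave 2.20 to 13.1 fragments for MI/RI replicate 3 and 40.6 to 70.5 for MI/RI replicate 2, which do not meet. The log2 fold change was −0.18, with an SE of 0.61 and a 95% interval of −1.61 to 1.25 in the fit with no filter (adjusted p = 0.87, limma). The log2 fold change was 0.40 without MI/RI replicate 3 and 0.17 without sham replicate 3, against −0.71 without MI/RI replicate 2, so single rats decided its sign.

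The window of 250 bases before the start of 8 members was found in the RefSeq promoter table (build GRCr8). Those of the receptors Tnfrsf12a and Tnfrsf1a, which rose, and of the ligand Tnf, whose change was not settled, are shown 5′ to 3′ in the direction of the gene. Capitals mark TATAAA, the core of the TATA box, and GGGCGG, the core of the GC box bound by Sp1, on either strand (CCGCCC on the other). They lie at chr10:13213649-13213898 (minus strand), chr4:159836869-159837118 (plus strand) and chr20:3626435-3626684 (plus strand).
Tnfrsf12a: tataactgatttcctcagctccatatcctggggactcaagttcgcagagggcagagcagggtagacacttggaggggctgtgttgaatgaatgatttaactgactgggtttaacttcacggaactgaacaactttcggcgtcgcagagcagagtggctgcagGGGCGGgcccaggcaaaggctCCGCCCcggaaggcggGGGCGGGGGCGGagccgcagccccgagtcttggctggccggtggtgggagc
Tnfrsf1a: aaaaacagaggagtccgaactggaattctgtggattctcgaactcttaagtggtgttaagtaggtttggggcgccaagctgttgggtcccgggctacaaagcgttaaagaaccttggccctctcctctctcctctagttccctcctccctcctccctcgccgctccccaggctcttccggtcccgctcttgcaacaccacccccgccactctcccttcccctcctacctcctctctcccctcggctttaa
Tnf: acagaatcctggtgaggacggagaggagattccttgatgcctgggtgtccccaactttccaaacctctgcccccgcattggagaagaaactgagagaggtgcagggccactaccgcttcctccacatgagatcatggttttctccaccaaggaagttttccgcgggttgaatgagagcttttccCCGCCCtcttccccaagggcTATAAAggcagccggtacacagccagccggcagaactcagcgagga

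The Tnfrsf12a window held 4 GC boxes within 88 bases of the start and no TATAAA, and that of Tnf held TATAAA at 46 to 41 bases before the start and 1 GC box. TATAAA was in 12.9% of the 33469 windows of the table and in no other member. GGGCGG was in 30.5% of the windows and in 5 of the 8 members. Those 5 windows held 55.6% to 63.2% G or C, against a median of 51.2% over all windows. The Tnfrsf1a window, at 57.6%, had no match. The part of base composition in these matches was not tested. The AP-1 motif TGANTCA was in 6.34% of all windows and in those of Fas, Tnfrsf1b and Traf1, and the NF-κB consensus in 6.33% and in that of Fas. The Tnfrsf1a window held none of these motifs. These matches describe the letters of the windows and not the binding of a factor.

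Tnfsf10 encodes TRAIL, a ligand of death receptors. The sham values were 2.82, 5.71 and 2.84 FPKM and the MI/RI values 2.18, 1.75 and 1.78 FPKM. All MI/RI rats were below all sham rats, and sham replicate 2 stood above the rest. The mean fell from 3.79 ± 1.66 to 1.91 ± 0.241 FPKM (SD, n = 3 each), with a log2 fold change of −0.88 (SE 0.30, adjusted p = 0.045, limma). The call was lost without any 1 of the rats other than sham replicate 1 (log2 fold change −0.55 without sham replicate 2, adjusted p = 0.11, limma) and in the fit to recovered fragments (adjusted p = 0.062, voom in limma). With the mitochondrial mRNAs left out of the scaling, Tnfsf10 passed at a log2 fold change of −1.64 (adjusted p = 0.0040, limma).

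Traf1 encodes an adaptor without the RING domain of the other TRAFs, which pairs with Traf2 and is itself a known NF-κB target. Sham rats had 1.62, 1.44 and 2.15 FPKM and MI/RI rats 0.717, 1.16 and 0.999 FPKM, with no overlap. The log2 fold change was −0.80 (SE 0.28, adjusted p = 0.0497, limma), just past the threshold. The call was lost with the replicate number as a block (adjusted p = 0.058, limma), without any 1 of the 6 rats (adjusted p from 0.055 to 0.20, limma) and in the fit to recovered fragments (adjusted p = 0.075, voom in limma). With the block, 1 member in place of 2 was lower. With the mitochondrial mRNAs left out of the scaling, Traf1 passed at a log2 fold change of −1.53 (adjusted p = 0.0074, limma).

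Traf2, the adaptor shared by Tnfrsf1a, Tnfrsf1b and Tnfrsf12a, had 3.64, 4.04 and 3.68 FPKM in sham and 5.55, 4.69 and 4.54 FPKM in MI/RI. The groups did not overlap. Its log2 fold change of 0.37 (SE 0.21, adjusted p = 0.20, limma) did not pass, had a 95% interval of −0.10 to 0.83, and was −0.40 with the mitochondrial mRNAs left out of the scaling.

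Fas, the death domain receptor of Fas ligand, was at 0.887, 1.20 and 1.22 FPKM in sham and at 0.650, 0.665 and 0.975 FPKM in MI/RI. It was the only tested member whose groups overlapped. The log2 fold change was −0.48 (SE 0.29, 95% interval −1.13 to 0.16, adjusted p = 0.22, limma). It was −1.19 and passed the test when the scaling left out the mitochondrial mRNAs (adjusted p = 0.032, limma).

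Tnfrsf11b encodes osteoprotegerin, a secreted decoy receptor for RANKL that also binds TRAIL. Its sham values were 0.279, 0.328 and 0.130 FPKM and its MI/RI values 0.524, 0.257 and 0.211 FPKM, or 19 to 59 fragments over the 6 rats. The groups overlapped. With no filter the log2 fold change was 0.30 (SE 0.40, 95% interval −0.64 to 1.24, adjusted p = 0.66, limma).

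In sham, Tnfsf12 stood alone at the top of the family (16.7 FPKM on average). Next came Tnfrsf12a, Tnfsf10, Traf2, Tnfrsf1a and Traf1 in falling order of the mean, where each overlapped its neighbour. Fas (1.10 FPKM), Tnfrsf1b, Tnf and Tnfrsf11b followed below Traf1 and again overlapped one after the other. In MI/RI the order was Tnfrsf12a, Tnfsf12, Tnfrsf1a and Traf2, each separated from the next in all rats. Tnfsf10 and Tnfrsf1b overlapped below them, as did Traf1, Fas, Tnf and Tnfrsf11b at the lower end. In FPKM, Tnfrsf12a thus moved from below its ligand to above it. This order rests on the division by length (1066 bases for Tnfrsf12a and 1615 for Tnfsf12). In fragments, Tnfrsf12a stayed below Tnfsf12 in MI/RI replicates 1 (901 against 1166) and 3 (1122 against 1241). It was above in MI/RI replicate 2 (3331 against 1327).

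**Figure D2:**
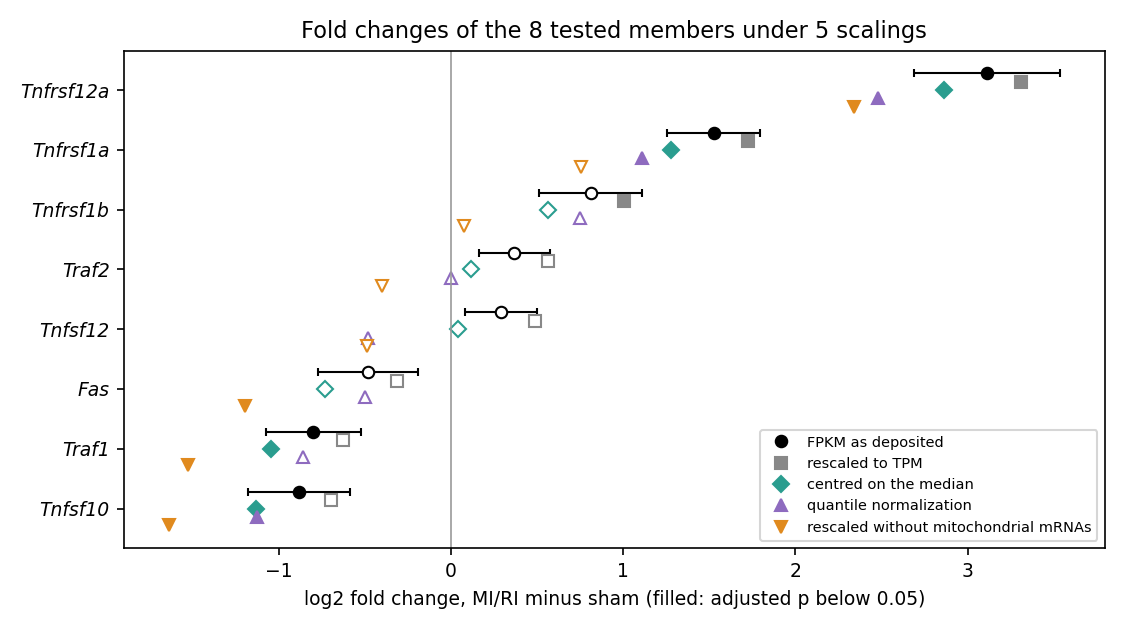
Log2 fold change (MI/RI minus sham) of the 8 tested members on the deposited FPKM (with the SE) and under 4 other scalings, filled where the adjusted p was below 0.05. Tnfrsf12a lay between 2.34 and 3.31 under the 5 scalings and was filled in each, while Tnfsf12 and Traf2 lay on both sides of 0.

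A ratio of 2 genes within a library depends little on how the library was scaled, so 5 pairs were compared in this way (two-sided exact permutation test, Benjamini-Hochberg adjusted over the 5 pairs). The log2 ratio of Tnfrsf12a to its ligand Tnfsf12 was −1.92, −1.76 and −2.19 in sham and 0.23, 1.92 and 0.45 in MI/RI. In FPKM, the receptor was below the ligand in every sham rat and above it in every MI/RI rat. The mean log2 ratio differed by 2.82 (exact p = 0.1, adjusted 0.125). Tnfrsf1b to Tnfrsf1a, the leukocyte and endothelial against the common TNF receptor, went from −1.56 ± 0.16 to −2.28 ± 0.19 (SD, n = 3 each), with no overlap and the same exact p of 0.1. The ratio of the decoy Tnfrsf11b to TRAIL went from −3.46 ± 0.45 to −2.28 ± 0.37 (SD, n = 3 each), and the difference of 1.18 was 0.76 with a pseudocount of 1. That of Traf1 to Traf2 went from −1.10 ± 0.34 to −2.26 ± 0.46 (SD, n = 3 each). Both were without overlap and at the exact p of 0.1, although Tnfrsf11b alone overlapped between the groups, on 19 to 59 fragments. No share of other gene pairs without overlap is given here, and 50.1% of the single genes tested did not overlap. Tnfrsf1a to Tnf overlapped between the groups, at 2.68 ± 0.70 in sham and 4.38 ± 1.19 in MI/RI (SD, n = 3 each, exact p = 0.2). None of the 5 could pass a threshold of 0.05 with 3 rats per group.

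**Figure D3:**
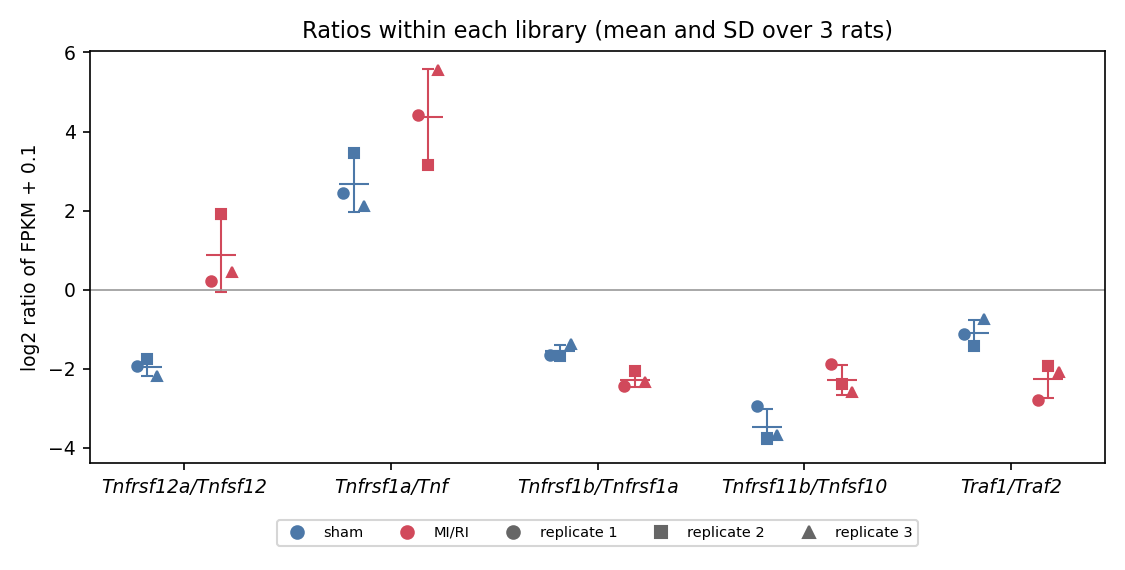
Log2 ratio of FPKM + 0.1 for 5 pairs of members in each library, with sham in blue, MI/RI in red and bars for the mean and SD of 3 rats. The Tnfrsf12a/Tnfsf12 points lie below 0 in the sham rats and above 0 in the MI/RI rats, and the Tnfrsf1a/Tnf points of the groups overlap.

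Other genes of the pathway were taken from lists fixed by name, which were chosen with earlier results of these data known. Of 15 other TNF superfamily ligands 13 were in the table and 2, Ltb (lymphotoxin beta) and Tnfsf13, passed the filter. Neither was called, with log2 fold changes of −0.20 and −0.06, and Cd70 was listed at 0 in all libraries. Of 20 other receptors, 7 were tested, 2 rose (28.6%, against 25.5% of all genes) and 1 fell (14.3%, against 7.36%). The sharpest fall was that of Tnfrsf25 (death receptor 3, known from T cells), from 3.30, 4.84 and 2.85 FPKM in sham to 0.0879, 0.752 and 0.189 FPKM in MI/RI (log2 fold change −3.36, SE 0.50, adjusted p = 0.0031, limma). Tnfrsf10b, the death receptor of TRAIL, rose from 0.248 ± 0.160 FPKM (SD, n = 3) to 0.782 ± 0.231 FPKM (SD, n = 3), with an adjusted p of 0.037 (limma). That call was lost without sham replicate 1 or 3 and without MI/RI replicate 1 or 2 (adjusted p from 0.081 to 0.11, limma). Cd40, a receptor of antigen-presenting cells, rose by 0.78 on the log2 scale (adjusted p = 0.044, limma). Its call was lost with the replicate block (adjusted p = 0.058, limma), without any 1 of the rats other than MI/RI replicate 1 (adjusted p from 0.062 to 0.16, limma) and in the fit to recovered fragments (adjusted p = 0.070, voom in limma). With the mitochondrial mRNAs left out of the scaling neither receptor passed, at log2 fold changes of 0.77 for Tnfrsf10b and 0.04 for Cd40.

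Of 26 signaling proteins downstream of the receptors, 22 were tested, 5 rose, 1 fell and 16 did not pass. These shares of 22.7% higher and 4.55% lower were near or below the 25.5% and 7.36% of all genes, and the list median of 0.18 was below the 0.29 of all genes. The largest rises were those of Birc3, Tnfaip3 and Cflar. Birc3 (cIAP2, a ubiquitin ligase bound to TRAF2) went from 1.14 ± 0.103 to 7.20 ± 2.04 FPKM, Tnfaip3 (A20, a feedback inhibitor of NF-κB) from 0.378 ± 0.108 to 2.22 ± 0.324 FPKM, and Cflar (c-FLIP, an inhibitor of caspase-8) from 1.85 ± 0.258 to 5.84 ± 1.57 FPKM (SD, n = 3 each). Their log2 fold changes were 2.52, 2.30 and 1.58 (adjusted p = 0.00061, 0.0021 and 0.0035, limma). Birc2 (cIAP1) and Tab2 also rose, whereas Casp8, the caspase of the death receptors, fell by 1.02 on the log2 scale (adjusted p = 0.018, limma). The calls of these last 3 genes were each lost without sham replicate 3 and without MI/RI replicate 3. That of Casp8 was also lost without sham replicate 2, that of Birc2 without MI/RI replicate 2, and that of Tab2 without any 1 of the rats other than sham replicate 2 (adjusted p from 0.053 to 0.14 over the 3 genes, limma). Without the mitochondrial mRNAs in the scaling, Cflar (0.83, adjusted p = 0.054, limma), Birc2 (0.20) and Tab2 (0.04) did not pass. The adaptor Tradd (log2 fold change −0.55), the kinase Ripk1 (−0.11) and Adam17 (0.08), the protease that sheds TNF, did not pass.

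Of 20 genes known to be induced by TNF through NF-κB, all were tested, 17 rose (85%, against 25.5% of all genes) and none fell, with a median log2 fold change of 2.32. Many of them also respond to other signals, and Birc3 and Tnfaip3 stand in this list too. As the list was chosen with earlier results of these data known, its share is not independent of them. Cxcl1, a neutrophil chemokine, rose from 0.702 ± 0.239 to 85.8 ± 25.8 FPKM (SD, n = 3 each), a log2 fold change of 6.73 (adjusted p = 1.2e-05, limma). Il6 had 3, 0 and 0 fragments in sham and 5.12, 6.12 and 8.60 FPKM in MI/RI, and Cxcl2 had 1, 0 and 3 fragments in sham and 6.23, 11.5 and 8.57 FPKM in MI/RI, so no fold is given for either. Nfkbia (log2 fold change 0.95, adjusted p = 0.15, limma), Nfkbie (0.33) and Tnfaip2 (0.69) were the 3 that did not pass. Sham replicate 3 held 17.2 FPKM of Nfkbia against 71.9 and 68.5 FPKM in the other sham rats.

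**Figure D4:**
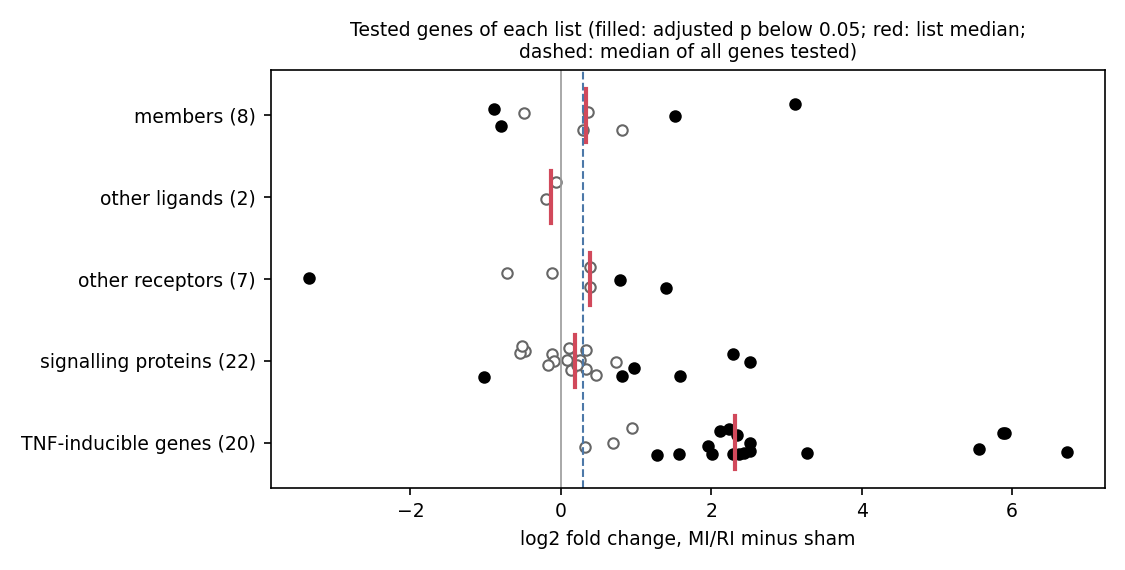
Log2 fold change (MI/RI minus sham) of each tested gene by list, filled where the adjusted p was below 0.05, with the list median in red, the median of all genes (0.29) dashed, and the number tested in brackets. The TNF-inducible genes are centred on 2.32 and all lie above 0, while the members and signaling proteins lie on both sides of 0.

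Markers of several cell types differed between the groups, and their part in these results was not tested. Their calls stand beside 25.5% higher and 7.36% lower of all genes. Without the mitochondrial mRNAs in the scaling, 793 genes were higher and 2857 lower, in place of 2790 and 805. The marker calls are given on the deposited FPKM only. Lymphocyte markers were 12.4 to 18.3 FPKM in sum in sham and 9.59 to 13.8 FPKM in MI/RI. Of their 4 tested genes, the T cell genes Cd3g (log2 fold change −1.25) and Cd8a (−1.73) were lower, whereas Nkg7 of cytotoxic lymphocytes (0.31) and Cd79a of B cells (−0.22) did not pass. Neutrophil markers summed to 12.9 to 17.7 FPKM in sham and 28.3 to 83.5 FPKM in MI/RI, and 3 of 4 tested were higher, while Mpo, a gene of immature granulocytes, was listed at 0 in all libraries. Of 7 monocyte and macrophage markers, Cd14 was higher and Cd163 and Mrc1, which mark resident macrophages, were lower, with sums of 47.8 to 69.0 and 63.2 to 82.1 FPKM. None of the 6 endothelial and none of the 6 pan-leukocyte markers passed, and of the fibroblast markers 1 of 6 was higher (416 to 574 FPKM in sum in sham and 590 to 653 FPKM in MI/RI). None of the 4 smooth muscle markers passed either. Their sums spread widely within each group, at 57.3 to 252 FPKM in sham and 79.4 to 285 FPKM in MI/RI. For the cardiomyocyte markers, whose sums were given above, 7 of 8 were higher with a median log2 fold change of 2.48, between the values of Tnfrsf1a and Tnfrsf12a.

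The genes whose profile was most like that of Tnfrsf12a over the 6 samples were Chac1, Akap12 and Fjx1. Their root mean square differences from it were 0.29, 0.41 and 0.46 on the log2(FPKM + 0.1) scale, each gene being taken relative to its sham mean. Like Tnfrsf12a, all had their highest value in MI/RI replicate 2, where Akap12 had 42.6 FPKM against 16.8 and 14.7 FPKM in MI/RI replicates 1 and 3. As these genes were picked by likeness over the same 6 samples, a shared peak follows from the choice and is no separate result. Chac1 had only 2 fragments in each sham library. For Tnf the nearest were ENSRNOG00000068341 and ENSRNOG00000003187, which have no symbol in the table, at differences of 0.34 and 0.36, and Vgll3 at 0.36. Vgll3 had 0.935 to 1.48 FPKM in sham and 0.726 to 2.04 FPKM in MI/RI.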

How the data were processed

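Total RNA of 6 rat hearts was sequenced from stranded libraries. The authors deposited FPKM values per gene and rat in 1 table, and STAR and HTSeq are named in the submitters' processing notes, with no version. The genome build and annotation are not given in the sources used here. Columns were matched to samples by name, and rows that shared a symbol were summed.

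Log2(FPKM + 0.1) of the 10942 genes that averaged 0.5 FPKM or more was compared with limma 3.58.1 in R 4.3.3 (intensity trend, Benjamini-Hochberg adjustment over all genes tested, threshold 0.05). The fit was run on simulated counts that took the sham means for both groups, with equal numbers of genes raised and lowered. That simulation held no change in the mitochondrial share, so it does not show how the fit behaves under one. The members, lists and alternatives were chosen with earlier results of these data known. Named beside the members were the 3 genes with the largest change among the calls of each pathway list, the 3 genes most like Tnfrsf12a and Tnf, and, after their values were seen, genes given to complete a list.

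Because FPKM is a whole count divided by a whole length and a whole total, fragments were recovered by finding totals and lengths that made all values whole. All 19481 genes above 0 came out within 0.002 of a whole fragment (plus rounding of the deposited digits), and the recovered counts held 99.9% of each total. They were tested with voom in limma as an alternative added after the data were seen. A length or count shared by a common factor cannot be told from its multiple. Intervals on fragments cover counting error only.

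The deviations of same-numbered samples had correlations of 0.20, 0.12 and 0.12 across genes. No correlation of samples with unlike numbers is given here, so a shared effect of the number was not tested. The fit with a replicate block is given where it changed a call. Nothing says how the samples were numbered or that each came from a rat of its own, so p-values measure the spread between these samples, which are called rats here.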

Additional observations from a re-analysis of the deposited data

How the results depend on the processing

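Tnfrsf12a was higher and past the threshold under all 17 other settings tried on FPKM (log2 fold change 2.34 to 3.46, adjusted p at most 0.019, limma) and Tnfrsf1a under 16 of 17. Without the mitochondrial mRNAs in the scaling, 1 of the 8 tested members was called higher and 3 lower, against 793 and 2857 of all 10942 genes. On TPM and in the voom fit of the same genes 3 members were higher, against 3449 and 2923 of all genes. The members called lower (2 as reported) were 1 with quantile normalization, without the limma trend and with the replicate block, and 0 with a pseudocount of 1, with no filter, on TPM, with an absolute log2 fold change above 1 and in both voom fits. Among genes averaging 5 FPKM or more the count was 0 because neither gene was tested there. With each rat left out in turn they were 0 to 1. Tnfsf10 lost its call in 9 and Traf1 in 11 of 16 such settings, and both stayed below 0 in each. Tnfsf12 reversed to −0.49 without the mitochondrial mRNAs and to −0.48 with quantile normalization, and Traf2 to −0.40 in the former.

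Of all genes, 2790 were higher and 805 lower. Rescaling without the mitochondrial mRNAs gave 793 higher and 2857 lower (21.7% of calls higher against 77.6%, median log2 fold change −0.46), quantile normalization 1441 and 1559 (48.0%), centring on the median 1554 lower (56.5% higher), TPM 504 lower, and genes averaging 5 FPKM or more 166 lower. With each rat left out, 1528 to 2557 were higher and 309 to 881 lower. Without the mitochondrial mRNAs the 2 tested other ligands were lower and 0 of 7 other receptors were higher. Of 22 signaling proteins, 2 were higher and 6 lower. These counts stand beside 793 higher and 2857 lower among the 10942 genes tested in that fit. Quantile normalization left 1 other receptor and 3 signaling proteins higher, and the replicate block 1 other receptor, Tnfrsf10b. In these 3 fits 15 to 17 TNF-inducible genes were higher. The replicate block changed no call of a member other than Traf1. Tnf and Tnfrsf11b were tested only without the filter, and the wide 95% intervals there (−1.61 to 1.25 and −0.64 to 1.24) do not show that they were unchanged.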
